A study of Homo sapiens with 8 samples.

Results

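Origins of replication in *ORC2Δ* cells were set directly against those in *ORC5Δ* cells, without the parental line as the reference. SNS-seq (sequencing of short nascent strands, the short new DNA left by replication that has just started) had been run on HCT116 colon cancer epithelial cells lacking p53 (WT) and on derivatives of them in which ORC1, ORC2, or ORC5 was inactivated by CRISPR–Cas9. All 4 lines share the p53 deletion, were grown without treatment in the same medium, and have 2 replicates each, so that 4 of the 8 samples belong to the comparison made here. The number of clones behind each line is not given in the sources used here, and a trace of a shortened ORC2 protein in the *ORC2Δ* line has been reported and disputed. The deposited tables give the reads of WT and 1 knockout line in the joined origins of that pair, with replicates merged. A row of the *ORC2Δ* table and a row of the *ORC5Δ* table on chromosomes 1 to 22 and X were taken as the same origin where they overlapped by at least 50% of both rows. This gave 37394 matched origins out of 44170 rows in the *ORC2Δ* table and 46463 rows in the *ORC5Δ* table (the 3 tables of the series hold 132789 rows). The origin lists of both lines, which hold the peaks found in both replicates, were compared as well.

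The origin recognition complex (ORC) is the assembly of the subunits ORC1 to ORC6 that, with CDC6 and CDT1, loads the MCM2–7 helicase onto DNA in G1 phase, and loaded helicases are what later become firing origins. In human cells, ORC has no strict DNA sequence preference, and origins found by SNS-seq tend to lie in GC-rich DNA with an imbalance of G over C on one strand. As the lines are described, *ORC2Δ* cells keep mainly ORC1 and ORC6 on chromatin, whereas *ORC5Δ* cells keep ORC1, ORC2, ORC3, and ORC6. In the study's own blots, however, ORC1 on chromatin was decreased in both of these lines. The direct comparison asks whether lines with these different subcomplexes use different origins.

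The sequences below are shown because they belong to the origins with the interval of the ratio between the lines furthest from 0 in each direction, at most 1 per 5 Mb, and to the origins with the most reads. Each is the reference sequence (hg38, plus strand) of 300 bases around the midpoint of a matched origin, and capitals mark runs of at least 3 G or 3 C. Such a run (GGG or CCC on the plus strand, each unbroken run counted once) was present in 99.4% of the 37394 matched origins over a window of this length, with a median of 14 runs per window. The first 3 origins were higher in *ORC2Δ* cells.
MAEA intron, chr4:1324237-1324536: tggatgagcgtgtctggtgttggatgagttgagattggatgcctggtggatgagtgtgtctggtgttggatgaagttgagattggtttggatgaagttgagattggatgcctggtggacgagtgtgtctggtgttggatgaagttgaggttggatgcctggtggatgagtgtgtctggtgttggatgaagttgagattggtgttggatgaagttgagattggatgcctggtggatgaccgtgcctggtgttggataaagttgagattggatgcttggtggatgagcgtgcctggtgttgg
SMOC2 intron, chr6:168668855-168669154: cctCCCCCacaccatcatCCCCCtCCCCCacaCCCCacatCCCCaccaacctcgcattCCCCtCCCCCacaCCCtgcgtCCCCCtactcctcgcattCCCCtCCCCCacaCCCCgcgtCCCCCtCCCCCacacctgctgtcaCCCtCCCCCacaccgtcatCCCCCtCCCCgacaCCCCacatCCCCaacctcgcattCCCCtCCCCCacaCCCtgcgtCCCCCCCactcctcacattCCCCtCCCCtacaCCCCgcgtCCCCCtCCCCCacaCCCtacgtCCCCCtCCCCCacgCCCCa
CLPTM1L intron, chr5:1327024-1327323: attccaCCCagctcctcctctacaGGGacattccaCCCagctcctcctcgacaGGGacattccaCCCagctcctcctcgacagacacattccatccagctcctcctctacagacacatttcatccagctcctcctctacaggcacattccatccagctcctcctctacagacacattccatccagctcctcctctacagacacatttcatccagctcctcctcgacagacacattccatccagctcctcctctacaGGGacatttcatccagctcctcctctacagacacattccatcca
The next 3 origins were higher in *ORC5Δ* cells.
CSNK1G2 intron, chr19:1967866-1968165: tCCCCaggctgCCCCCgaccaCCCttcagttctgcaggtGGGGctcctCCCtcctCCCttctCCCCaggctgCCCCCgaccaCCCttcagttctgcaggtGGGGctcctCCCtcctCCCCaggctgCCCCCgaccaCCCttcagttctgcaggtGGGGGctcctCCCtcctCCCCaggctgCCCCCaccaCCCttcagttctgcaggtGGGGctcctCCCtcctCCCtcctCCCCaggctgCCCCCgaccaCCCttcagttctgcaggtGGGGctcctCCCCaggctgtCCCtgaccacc
Intergenic, chr18:39830085-39830384: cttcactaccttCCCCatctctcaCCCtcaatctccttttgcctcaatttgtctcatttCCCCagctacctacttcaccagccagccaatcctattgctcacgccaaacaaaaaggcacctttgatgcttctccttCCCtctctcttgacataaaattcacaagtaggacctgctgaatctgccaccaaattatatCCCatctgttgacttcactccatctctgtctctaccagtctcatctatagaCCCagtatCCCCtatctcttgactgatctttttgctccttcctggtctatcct
C13orf46 intron, chr13:113963331-113963630: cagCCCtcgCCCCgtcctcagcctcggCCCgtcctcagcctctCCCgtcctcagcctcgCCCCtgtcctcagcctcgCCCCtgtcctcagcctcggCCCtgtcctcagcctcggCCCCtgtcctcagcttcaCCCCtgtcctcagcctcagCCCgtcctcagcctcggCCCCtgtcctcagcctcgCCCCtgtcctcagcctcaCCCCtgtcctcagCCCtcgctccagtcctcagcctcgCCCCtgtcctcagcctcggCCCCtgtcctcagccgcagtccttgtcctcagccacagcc
The last 2 origins had the most reads in both lines together, with at most 1 taken per chromosome.
Chromosome 6 lncRNA ENSG00000228361, chr6:168235805-168236104: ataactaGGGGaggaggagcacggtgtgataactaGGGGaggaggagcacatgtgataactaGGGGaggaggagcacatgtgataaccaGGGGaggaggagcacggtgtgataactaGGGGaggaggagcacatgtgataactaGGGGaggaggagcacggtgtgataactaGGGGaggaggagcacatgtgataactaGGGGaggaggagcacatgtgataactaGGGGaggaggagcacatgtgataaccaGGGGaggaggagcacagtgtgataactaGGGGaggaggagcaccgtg
Chromosome 22 near ENSG00000284874, chr22:19726328-19726627: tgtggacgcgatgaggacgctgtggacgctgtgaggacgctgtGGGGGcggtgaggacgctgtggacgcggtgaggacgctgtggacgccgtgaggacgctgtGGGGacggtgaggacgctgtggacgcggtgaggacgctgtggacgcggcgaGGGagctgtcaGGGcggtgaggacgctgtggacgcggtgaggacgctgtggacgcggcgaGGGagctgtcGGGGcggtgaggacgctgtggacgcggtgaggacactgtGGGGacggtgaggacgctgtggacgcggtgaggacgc

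The MAEA window holds no run of 3 G or C and is built of copies 47 bases apart, with 62.1% of its bases equal to the base 47 positions before. The CLPTM1L window is the most regular of the 8, with a share of 0.93 of its bases repeated every 29 bases. The SMOC2 window has 33 runs of C and no run of G, and a GC skew, (G − C)/(G + C), of −0.84. In the window on chromosome 18, by contrast, no spacing from 2 to 99 bases repeated more than 39.6% of the bases.

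Before any origin was compared, the matching itself was checked with the WT columns. The 2 tables carry WT reads from the same libraries, counted in rows whose ends differ slightly, so a WT ratio between the tables measures only the effect of the row ends and of the totals. The median overlap of matched rows was 94.0% of the wider row, and the rows were identical in 5892 pairs, and WT counts were equal in all 5892 of these. Over all 37394 pairs, the log2 ratio of the WT columns had a median of 0.051, which is the log2 ratio of the table totals, and an SD of 0.12. A WT ratio of 1.5-fold or more was reached by 19 pairs with the higher value in the *ORC2Δ* table (0.0508%) and by 3 with the lower value there (0.00802%). Of the rows without a partner, 6269 in the *ORC2Δ* table and 8524 in the *ORC5Δ* table overlapped no row of the other table, so that the other line has no count there. The 249 pairs just inside the limit, at 50% to 55% overlap, had a median log2 ratio of *ORC2Δ* over *ORC5Δ* of 0.017, and the 214 overlapping pairs just outside it, from 45%, had 0.053.

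The levels of origins in the *ORC2Δ* and *ORC5Δ* lines were close over most of the genome. The level of an origin is given in RPKM, the reads of the line in the row scaled by all reads of the line in its table (7808290 in *ORC2Δ* and 8523971 in *ORC5Δ* cells) and by the width of the row. The median level was 31.8 in *ORC2Δ* cells (interquartile range 25.7 to 41.7) and 31.6 in *ORC5Δ* cells (26.1 to 40.3), from a median of 138 and 151 reads. The log2 ratio of *ORC2Δ* over *ORC5Δ* had a median of 0.021, an interquartile range of −0.10 to 0.13, and an SD of 0.21. That median was −0.020 with the reads of the matched rows as the total, and 0.0043 and 0.0064 with median-of-ratios and TMM factors. Relative to WT, the medians were −0.065 in *ORC2Δ* and −0.026 in *ORC5Δ* cells. Medians of this size, also those of classes of origins below, thus give no direction by themselves. Between 0.25 below and 0.25 above 0 lay 30692 origins, or 82.1%. Across origins, the log2 levels had a Pearson correlation of 0.92 (a description over 37394 origins of 2 merged libraries). Because replicates were merged, a line is 1 sample, and no test between lines was possible. The 95% intervals given below for the ratio of a single origin (exact Clopper-Pearson on the share of reads) cover counting error only. That interval included 0 for 33921 origins (90.7%), lay above 0 for 2319 (6.20%), and lay below 0 for 1154 (3.09%). The median half-width of the interval was 0.35 on the log2 scale, so a difference smaller than this was not detectable at the depth of a typical origin.

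At 1.5-fold, the threshold that the study's methods use against WT, 150 origins were higher in *ORC2Δ* cells (0.401% of 37394) and 368 were higher in *ORC5Δ* cells (0.984%). Without division by the row width, as the methods count, the numbers were 699 and 875, and in rows that overlap both lists they were 93 and 62. The 368 became 569 after the WT ratio of the tables was taken off, 163 with at least 200 reads, and 129 after the median of 5 Mb blocks was taken off. The whole interval lay beyond 1.5-fold for 16 and 58 of them. The origins higher in *ORC5Δ* cells had few reads in *ORC2Δ* cells, with a median of 58 against 121.5, and those higher in *ORC2Δ* cells had a median of 167.5 against 116. In the 368 origins higher in *ORC5Δ* cells, *ORC2Δ* cells were at least 1.5-fold below WT in 341 and *ORC5Δ* cells at least 1.5-fold above WT in 1. In the 150 origins higher in *ORC2Δ* cells, *ORC2Δ* cells were at least 1.5-fold above WT in 49 and *ORC5Δ* cells at least 1.5-fold below WT in 44. The same matching gave 35250 origins for *ORC1Δ* and *ORC2Δ* cells, with 1187 (3.37%) higher and 242 (0.687%) lower in *ORC1Δ* cells, and 35834 for *ORC1Δ* and *ORC5Δ* cells, with 674 (1.88%) higher and 205 (0.572%) lower. These comparisons share their knockout columns with the present one. The median log2 ratio was 0.088 and 0.11 there, against 0.021 between *ORC2Δ* and *ORC5Δ* cells, so counts at a fixed 1.5-fold are not centred alike. The SD of the log2 ratio was 0.27 and 0.24 there, against 0.21 between *ORC2Δ* and *ORC5Δ* cells.

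**Figure D1:**
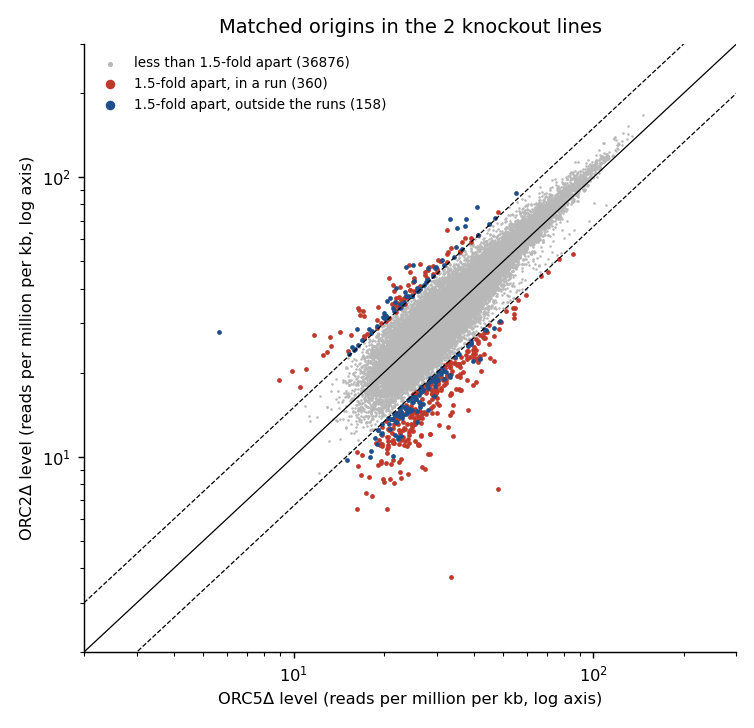
Level of each of the 37394 matched origins in *ORC5Δ* cells (horizontal) and *ORC2Δ* cells (vertical), in RPKM on log axes. The solid line marks equal levels and the dashed lines 1.5-fold; red points are the 360 origins past 1.5-fold inside runs of neighbouring origins and blue points the 158 outside them.

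Neighbouring origins that differ from the rest of the genome together were found with a median over 21 consecutive matched origins. Stretches where it departed from the overall median by more than 0.2 on the log2 scale were joined where they went the same way and fewer than 21 origins parted them. Joined stretches with at least 15 origins, whose own median was more than 0.2 from the overall median, are called runs. A run can thus hold origins where the median over 21 origins did not pass the limit. The limits were chosen after seeing the data, and the runs rest on the same ratios that they describe, so their counts are a description. There were 12 runs on 9 chromosomes, 7 higher in *ORC2Δ* cells and 5 higher in *ORC5Δ* cells, with 1202 origins (3.21%) in 77.3 Mb. They held 360 of the 518 origins past 1.5-fold, 87 of the 150 that were higher in *ORC2Δ* cells and 273 of the 368 that were higher in *ORC5Δ* cells. The files hold no reads of total DNA, so the number of copies of a run and the use of its origins cannot be told apart.

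The run with the most called origins covered the start of chromosome 6, chr6:280827-26597845, where 241 of 243 origins lay below the overall median. Its median log2 ratio was −0.70, and 161 of the 243 origins passed 1.5-fold. The median level was 17.4 in *ORC2Δ* cells, 27.6 in *ORC5Δ* cells, and 32.5 in WT (29.3 in the WT column of the *ORC5Δ* table). Split in order into 4 equal parts, the run had medians of −0.63, −0.76, −0.70, and −0.67, and the next 20 origins had 0.13. In the first 20 Mb alone, 212 origins had a median log2 ratio of −0.71, a shift of −0.74 from that of all origins, whereas the 1382 origins of the rest of the chromosome had 0.092.

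A stretch of 2.80 Mb at the end of chromosome 13 (chr13:111434584-114235204) and 10.0 Mb of chromosome 18 (chr18:35217229-45227166) went the same way. On chromosome 13, 139 of 140 origins lay below the overall median, with a median log2 ratio of −0.59, and 74 passed 1.5-fold. On chromosome 18, 40 of 42 origins lay below it, with a median of −0.74, and 27 passed 1.5-fold. In both runs *ORC5Δ* cells were near WT (median log2 ratio of −0.031 and −0.098), whereas *ORC2Δ* cells were below it (−0.74 and −0.89). Together, the runs on chromosomes 6, 13, and 18 held 262 of the 368 origins that were higher in *ORC5Δ* cells.

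A short run on chromosome 19 (chr19:1766429-2164567) had 31 origins, a median of −0.51, and held the 2 lowest log2 ratios of all matched origins. In an intron of CSNK1G2, a casein kinase 1 gene, the origin at chr19:1967652-1968379 had 17 reads in *ORC2Δ* cells, 208 in *ORC5Δ* cells, and 150 in WT, a log2 ratio of −3.18 (interval −3.98 to −2.46). A neighbour at chr19:1959342-1959895 had 29, 227, and 168 reads and a log2 ratio of −2.65 (−3.26 to −2.09). Relative to WT, the first was at −3.37 in *ORC2Δ* cells and at 0.033 in *ORC5Δ* cells. The third lowest origin of the run, with 52 against 137 reads, had −0.81 (−1.30 to −0.34). Split in order into 4 parts, the run had medians of −0.51, −0.56, −0.74, and 0.14, so that the median of its last 7 origins lay above 0.

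Of the runs that were higher in *ORC2Δ* cells, the longest covered the start of chromosome 2, chr2:10166-21151285. In it, 396 of 407 origins lay above the overall median, with a median log2 ratio of 0.37, and 42 passed 1.5-fold. The median level was 39.2 in *ORC2Δ* cells, 30.5 in *ORC5Δ* cells, and 30.0 in WT. Its 4 parts had medians of 0.37, 0.38, 0.39, and 0.34, and the next 20 origins had 0.034. On chromosome 4 (chr4:102825973-107718011), 17 of 18 origins lay above the overall median, with a median of 0.43, and *ORC2Δ* cells were again the line away from WT (0.34, against −0.044 in *ORC5Δ* cells).

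In 3 further runs, the line that departed from WT was *ORC5Δ*. On chromosome 5 (chr5:177685611-178976551), 35 of 35 origins had a ratio above 0, with a median of 0.60, and the median level was 20.6 in *ORC5Δ* cells, 31.9 in *ORC2Δ* cells, and 32.4 in WT. On chromosome 6 near its other end (chr6:168391229-169175326), 23 origins had a median of 0.73, and *ORC5Δ* cells were at −0.79 relative to WT while *ORC2Δ* cells were at −0.084. On chromosome 10 (chr10:587461-7378965), 150 origins had a median of 0.26, *ORC5Δ* cells were at −0.29 relative to WT, and 7 origins passed 1.5-fold. This run was weakly set off, since the 39 origins beside it had a median of 0.16, with *ORC5Δ* cells at −0.27 relative to WT. In the other 9 runs, *ORC2Δ* cells were further from WT than *ORC5Δ* cells, as the plot of both lines against WT shows. The remaining runs were weak as well. They were a pair in the major histocompatibility region of chromosome 6 (66 and 32 origins, medians of 0.25 and 0.23, with 0.18 and 0.19 in the 40 origins beside each) and 15 origins of chromosome 8 with a median of −0.18, of which 5 lay above 0.

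**Figure D2:**
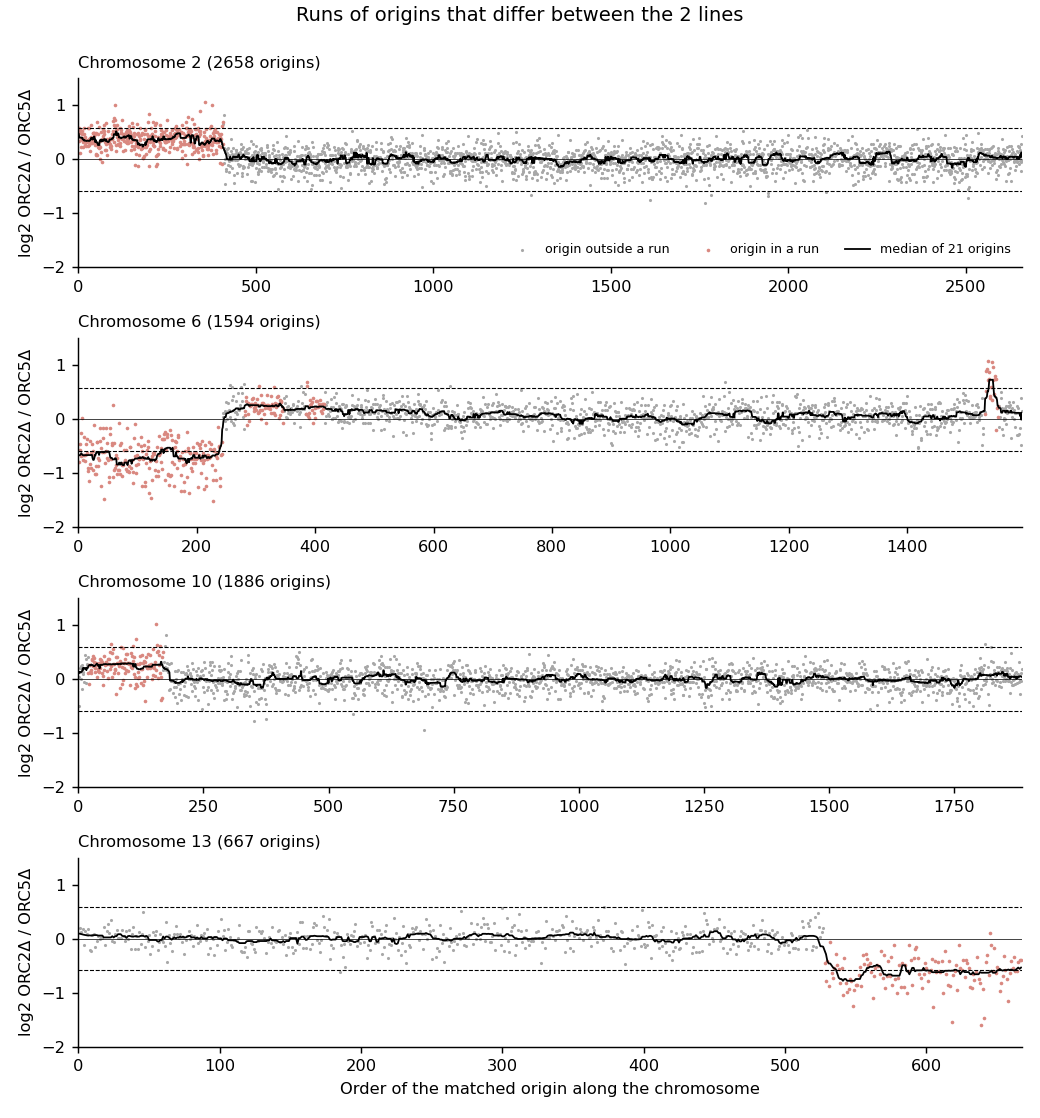
Log2 ratio of *ORC2Δ* over *ORC5Δ* (vertical) for the matched origins of chromosomes 2, 6, 10, and 13 in their order along the chromosome (horizontal). Grey points are origins outside the runs, red points are origins in a run, the black line is the median over 21 origins, and dashed lines mark 1.5-fold. The runs have a median of 0.37 on chromosome 2, −0.70 at the start of chromosome 6, 0.26 on chromosome 10, and −0.59 on chromosome 13, and the origins beside them 0.034, 0.13, 0.16, and 0.094.

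**Figure D3:**
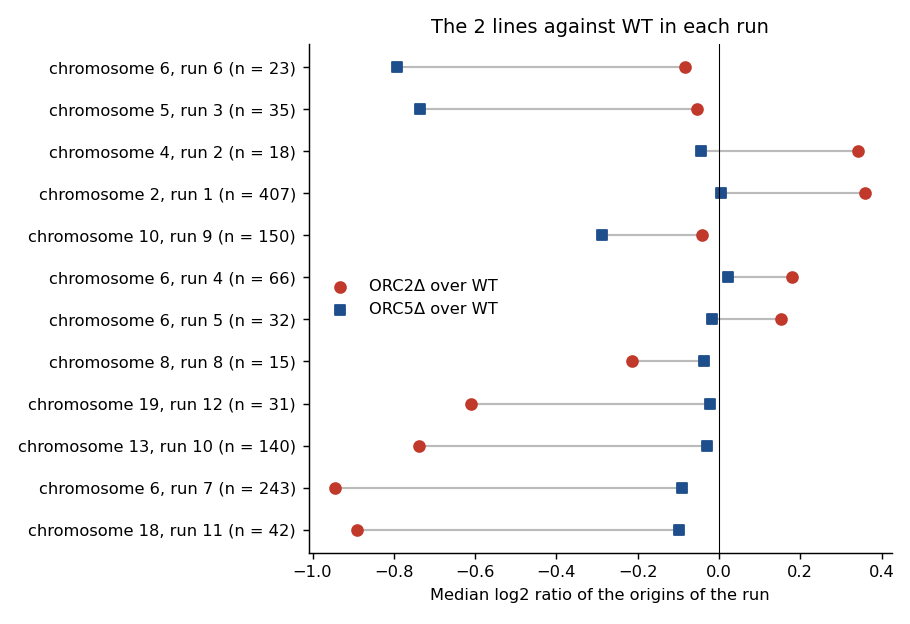
Median log2 ratio over WT of *ORC2Δ* cells (red circles) and *ORC5Δ* cells (blue squares) in each of the 12 runs, ordered by the ratio of the lines, with the number of origins in brackets. The blue square is away from 0 in the runs on chromosomes 5 and 10 and in 1 run on chromosome 6 (−0.73, −0.29, and −0.79), and the red circle in the others.

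The origin lists showed the same runs in the number of peaks called. In the run at the start of chromosome 6, the *ORC2Δ* list had 48 origins, the *ORC5Δ* list 352, and the WT list 244, and 47 of the 352 *ORC5Δ* origins had an *ORC2Δ* counterpart (13.4%, 95% Wilson interval 10.2% to 17.3%). In the run on chromosome 2, the lists had 554 origins in *ORC2Δ*, 398 in *ORC5Δ*, and 271 in WT cells. In the runs on chromosomes 5 and 10 and the last on chromosome 6, *ORC5Δ* cells had the fewest peaks, with 16, 106, and 13 against 35, 145, and 28 in *ORC2Δ* cells. Over chromosomes 1 to 22 and X, the lists had 37811 *ORC2Δ* and 41328 *ORC5Δ* origins, and 72.3% of the latter had an *ORC2Δ* counterpart. The size of the whole WT list was not set beside these counts, so an excess over WT in a run is not by itself local. The lists come from the same reads as the tables, so the counts in the runs are not a second measurement.

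Outside the runs, 36192 origins had an SD of the log2 ratio of 0.18, and 63 (0.174%) were higher in *ORC2Δ* cells and 95 (0.262%) in *ORC5Δ* cells. Those higher in *ORC2Δ* cells were often tandem repeats. A tandem self-match was computed as the highest share of bases equal to the base a fixed distance before, over distances of 2 to 99 bases. It was at least 0.5 in 23 of the 63 origins (36.5%), against 1 of the 95 higher in *ORC5Δ* cells (1.05%) and 8.91% of all origins outside the runs. An absolute GC skew of at least 0.6 was found in 19 of the 63 (30.2%), 0 of the 95, and 5.65% of all. The 95 had few reads, with 74 of them under 200 in both lines together. Of the 63, 15 lay within 2 Mb of a chromosome end (23.8%, against 9.08% of all). The WT columns of the tables differed by more than 0.3 on the log2 scale at 15 of the 63, against 4.14% of all, and the part of the row ends in these ratios was not tested.

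Origins outside the runs that were higher in *ORC5Δ* cells, looked up after their values were seen, had log2 ratios down to −1.09. That value belonged to an intron of PALLD, the gene of the actin-binding protein palladin, with 49 reads in *ORC2Δ* cells, 114 in *ORC5Δ* cells, and 97 in WT (interval −1.61 to −0.60). In WWOX, which spans a common fragile site, an intronic origin had 68, 134, and 86 reads and a log2 ratio of −0.82 (−1.27 to −0.39), with *ORC2Δ* cells below WT (−0.57) and *ORC5Δ* cells above it (0.33). Over an exon of PCDH12, a protocadherin gene, the reads were 77, 123, and 82, and the log2 ratio was −0.90 (−1.33 to −0.48). Its rows are of unequal width, and the WT level was 28.1 in the *ORC2Δ* table and 31.3 in the *ORC5Δ* table. This origin is in the *ORC2Δ* list and absent from the *ORC5Δ* list, although its level was 22.4 in *ORC2Δ* and 41.9 in *ORC5Δ* cells.

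The single origins with the strongest evidence of a higher level in *ORC2Δ* cells were ranked by the interval bound nearest 0, among origins with at least 100 reads and with 1 origin per 5 Mb. The first lies in an intron of MAEA, which encodes a subunit of a ubiquitin ligase, at chr4:1323865-1324909. It had 575 reads in *ORC2Δ* cells, 269 in *ORC5Δ* cells, and 114 in WT (111 in the *ORC5Δ* table). Both knockout lines were thus above WT, and the log2 ratio between them was 1.09 (interval 0.87 to 1.30). In an intron of CLPTM1L, the neighbour of the telomerase gene TERT, the origin at chr5:1326370-1327978 had 877, 490, and 312 reads in *ORC2Δ*, *ORC5Δ*, and WT cells and a log2 ratio of 0.92 (0.76 to 1.09). In PTPRN2, a phosphatase-like receptor of secretory vesicles, the origin at chr7:158359800-158361297 had 563, 304, and 372 reads and a log2 ratio of 0.96 (0.75 to 1.16), with *ORC2Δ* cells above and *ORC5Δ* cells below WT (0.36 and −0.55). Its sequence repeats every 35 bases with a self-match of 0.82.

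Of the other 5 members of this group, 3 lay in runs. The origin in SMOC2, a gene of a secreted matrix protein, at chr6:168668474-168669536 had 361 reads in *ORC2Δ* and 178 in *ORC5Δ* cells, with 311 in WT, and its log2 ratio was 1.06 (0.80 to 1.33). The origin 7.67 kb from EIPR1 at chr2:3180458-3181255 had 386 and 186 reads and a log2 ratio of 1.01 (0.75 to 1.27). An origin far from genes at chr2:18911427-18912388, 322 kb from NT5C1B, had 366 and 180 reads and a log2 ratio of 1.00. After the median of each 5 Mb block was taken off, the ratios of these 2 origins on chromosome 2 were 0.64 and 0.70. Outside the runs, near DRD1, the dopamine receptor gene, the origin at chr5:175420335-175420906 had 213 and 116 reads and a log2 ratio of 1.00 (0.67 to 1.34), although it is in neither list. The origin in TDRD12, also outside the runs, at chr19:32745888-32747027 had 371 and 340 reads in rows of unequal width, and its log2 ratio of 0.91 became 0.25 without division by the width and 0.54 after the WT ratio was taken off.

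In the other direction, each of the first 8 origins lay in a run. After the CSNK1G2 origin came one in a gene-poor stretch of chromosome 18, chr18:39829930-39830540, with 31 reads in *ORC2Δ* cells, 107 in *ORC5Δ* cells, and 86 in WT, and a log2 ratio of −1.66 (−2.29 to −1.07). The origin in C13orf46 at chr13:113963057-113963905 had 50, 175, and 137 reads and −1.47 (−1.96 to −1.01). On chromosome 6, the origin over an exon and the upstream region of RIPOR2 had 37 reads against 116 and a log2 ratio of −1.52 (−2.10 to −0.98). The other 4 were in introns of GMDS, which makes a precursor of GDP-fucose, of DTNBP1, the dysbindin gene, and of PHACTR1, a regulator of actin, and in a stretch 187 kb from RREB1. They had 30 against 104, 49 against 159, 69 against 175, and 74 against 218 reads, and log2 ratios from −1.48 to −1.22. After the median of each 5 Mb block was taken off, the CSNK1G2 origin had −3.22 and the other 7 had −0.91 to −0.48, of which those near RREB1 (−0.48) and in PHACTR1 (−0.58) no longer passed 1.5-fold. In these 8 origins, *ORC5Δ* cells lay between −0.19 and 0.13 of WT on the log2 scale, and *ORC2Δ* cells between −3.37 and −1.14.

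The highest log2 ratio of all belonged to an origin with few reads, which was singled out after its value was seen. In an intron of LMNB1, the gene of lamin B1, at chr5:126824533-126824848, *ORC2Δ* cells had 69 reads, *ORC5Δ* cells 15, and WT 66, a log2 ratio of 2.31 (1.48 to 3.22). It was at the WT level in *ORC2Δ* cells (−0.17) and low in *ORC5Δ* cells (−2.42).

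The 5 origins with the most reads, taken on different chromosomes, differed little per kilobase. The one with the most, in a lncRNA gene at chr6:168233893-168238017, had 4158 reads in *ORC2Δ* and 4367 in *ORC5Δ* cells and a log2 ratio of 0.074 (0.012 to 0.14). The origin at chr22:19725001-19727954 had 3230 and 2207 reads, in rows of unequal width, and a log2 ratio of 0.056 (−0.023 to 0.13), which became 0.68 without division by the width. Those over PRR36, PNPLA7, and TRAPPC9 had ratios of 0.12, 0.20, and 0.087. The intervals of these 5 ratios lay between −0.023 and 0.28.

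The ratio between the lines changed with the sequence and the strength of the origin by amounts below the 1.5-fold threshold. Origins with an absolute GC skew of 0.3 to 0.4, the most common class with 11004 origins, had a median log2 ratio of −0.0016. The median was 0.066 at 0.5 to 0.6, 0.11 at 0.6 to 0.7, 0.13 at 0.7 to 0.8, and 0.17 in the 714 origins at 0.8 or more. The last value was 0.14 above the median of all origins (0.13 to 0.20 under the alternatives tried). Of these 714 origins, 12 passed 1.5-fold upward (1.68%, background 0.401%) and 1 downward (0.140%, background 0.984%). Their median level was 41.4 in *ORC2Δ* cells, 36.7 in *ORC5Δ* cells, and 25.9 in WT, so that both knockout lines were above WT, *ORC2Δ* cells by a median log2 ratio of 0.67 and *ORC5Δ* cells by 0.55. The direction of the skew made little difference, with medians of 0.17 in the 361 origins with G on the plus strand and 0.16 in the 353 with C.

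Strongly skewed origins were also repetitive, wide, and rich in reads. Their median tandem self-match was 0.64, against 0.34 in all origins, and all but 7 of the 714 reached 0.5, against 9.15% of all origins. Their median width was 794.5 bp against 594 bp, and they had a median of 455 reads in both lines together against 288. Over all origins, the median ratio was −0.28 in the 52 origins with fewer than 100 reads, −0.038 at 100 to 200 reads, and 0.00020 at 200 to 400 reads. It was 0.057 at 400 to 800 reads, 0.10 at 800 to 1600 reads, and 0.11 above that. Within each of these classes from 100 reads on, origins with a skew of 0.8 or more were higher than those below 0.3, by 0.093 to 0.14, and within classes of width by 0.12 to 0.17. Taken alone, the self-match went with a median ratio of −0.0094 in the 21742 origins under 0.35, 0.069 at 0.4 to 0.45, 0.12 at 0.6 to 0.7, and 0.097 in the 588 origins at 0.7 or more. Where both features could be separated, the skewed origins were higher. At a self-match of 0.5 to 0.6, the 172 origins with a skew of 0.8 or more had a median of 0.17 and the 186 with a skew below 0.3 had 0.065. At a self-match of at least 0.6, the 535 with a skew of 0.8 or more had a median of 0.16 and the 134 with a skew below 0.3 had 0.032.

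Repeats of ATCC with at least 4 copies in a row (any rotation, either strand) were present in 943 origins, whose median ratio was 0.12, against 0.018 in the 36451 without. Repeats of TACC, counted the same way, were present in 11 origins with a median of 0.13 (interval −0.36 to 0.31), too few to set against those of ATCC. Of these 943 origins, 3 passed 1.5-fold in each direction (0.318%, against 0.401% upward and 0.984% downward over all). Low GC content went with a higher level in *ORC2Δ* cells, with medians of 0.12 in the 134 origins under 35% and 0.099 in the 1010 at 35% to 40%. Medians lay between 0.0078 and 0.027 from 40% to 65% and were 0.050 in the 1317 origins at 70% or more. CpG-rich origins (wider than 200 bp, at least 50% GC, observed over expected CpG above 0.6) numbered 3984 and had a median of 0.046, and the 4150 origins within 2 kb upstream of a protein-coding transcript had 0.047. Relative to WT, *ORC2Δ* and *ORC5Δ* cells were at −0.062 and −0.060 in the CpG-rich origins, and at −0.047 and −0.044 in the upstream ones. Origins in introns, the largest class with 14841, had 0.014, those over exons 0.022, those in lncRNA genes 0.014, and those between genes 0.022. Outside the runs, the median at a skew of 0.8 or more was 0.16. There, 7 of 691 such origins passed 1.5-fold upward (1.01%, against 0.174% of all outside the runs) and 0 downward (against 0.262%).

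**Figure D4:**
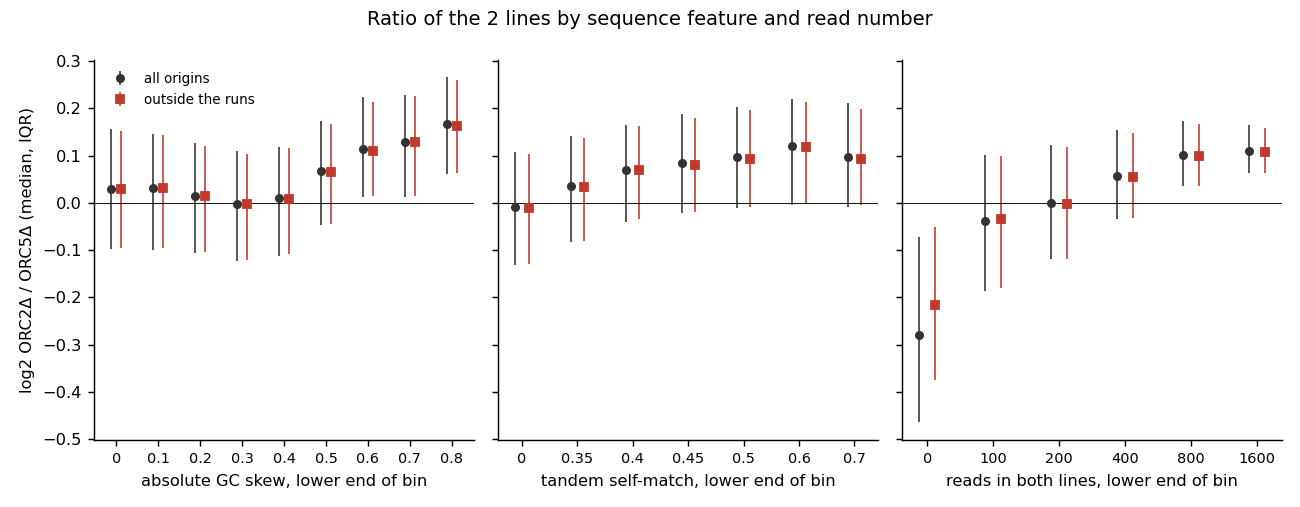
Median (point) and interquartile range (bar) of the log2 ratio of *ORC2Δ* over *ORC5Δ* in classes of absolute GC skew, tandem self-match, and reads in both lines together, each class named by its lower end. Black circles are all 37394 matched origins and red squares the 36192 outside the runs. Medians lie near 0 in the most common classes and reach 0.17 at the highest skew and 0.11 at the most reads.

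By chromosome, the median log2 ratio lay between −0.036 on chromosome 13 and 0.063 on chromosomes 21 and X. Chromosomes 6 and 13 had the highest shares of origins that were higher in *ORC5Δ* cells (10.1% and 11.2%, against 0.984% over all), and chromosomes 2, 5, and 6 the highest shares in the other direction (1.66%, 1.51%, and 1.51%, against 0.401%). On chromosome 22, 0 of 1272 origins passed 1.5-fold in either direction.

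The lists of the lines overlapped more than they differed. The *ORC2Δ* list had 37811 origins (22.4 Mb) and the *ORC5Δ* list 41328 (24.2 Mb). At least 1 bp was shared with the other list by 29814 *ORC2Δ* origins, or 78.9% (95% Wilson interval 78.4% to 79.3%), and by 29866 *ORC5Δ* origins, or 72.3% (71.8% to 72.7%). The Wilson intervals, here and in the runs, count each origin as independent and leave out differences between replicates and the choice of overlap rule. Sharing went with the level of the origin. Of the 10% of the *ORC2Δ* list with the lowest levels, 59.6% were shared, and of the 10% with the highest levels, 96.0%. In the *ORC5Δ* list, the shares were 44.2% and 95.5%. Chromosome 19 had the highest share in both lists (88.8% and 85.1%), and the lowest shares in the *ORC5Δ* list were on chromosomes 13 and 6 (58.9% and 59.1%).

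**Figure D5:**
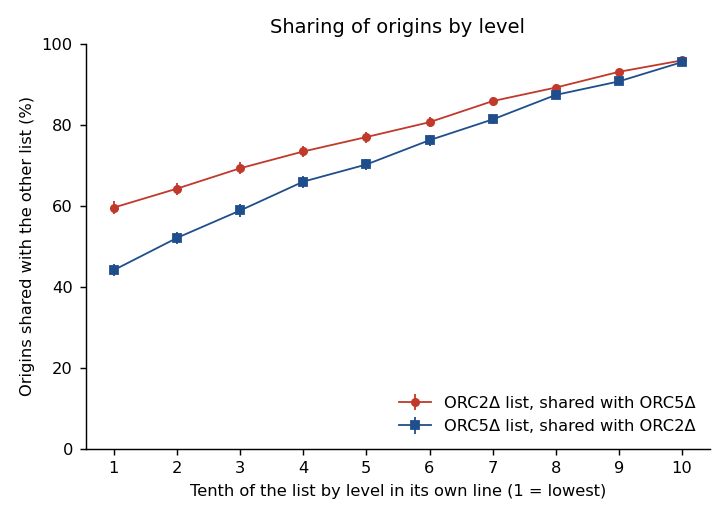
Share of the origins of a list that overlap an origin of the other list by at least 1 bp (vertical, percent, with 95% Wilson intervals), in 10 equal classes of the list by level in the line's own table (horizontal). Red circles are the *ORC2Δ* list and blue squares the *ORC5Δ* list. The share goes from 59.6% to 96.0% and from 44.2% to 95.5%.

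The 7997 *ORC2Δ* origins without an *ORC5Δ* counterpart had a median level of 27.2, against 33.7 in those shared, and a median width of 438 bp, against 552 bp. The 11462 *ORC5Δ* origins without an *ORC2Δ* counterpart had a median level of 26.4, against 33.1, and a width of 448 bp, against 558 bp. Of such origins, 5.33% and 5.23% lay within 1 kb of an origin of the other list, and 30.9% and 29.6% within 10 kb. WT had an origin at 21.6% and 25.6% of them, against 73.7% and 73.6% of the shared ones.

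Among matched origins, most of those found in 1 list only did not pass 1.5-fold. Of the matched origins, 1669 overlapped the *ORC2Δ* list and not the *ORC5Δ* list, and their median ratio was −0.019, with 27 higher in *ORC2Δ* cells (1.62%, against 0.401% over all). Another 2873 overlapped the *ORC5Δ* list only and had a median of −0.089, with 178 higher in *ORC5Δ* cells (6.20%, against 0.984%), of which 146 lay in runs. Thus 205 of the 4542 matched origins found in 1 list only (4.51%) passed 1.5-fold in the direction of that list. All of these origins are in the WT list, since a matched row without an origin in 1 of the lines owes its place to WT. The log2 ratio of the WT columns had a median of −0.022 in the 1669 and 0.13 in the 2873, against 0.051 over all. Relative to WT, *ORC2Δ* and *ORC5Δ* cells were at −0.13 and −0.17 in the 1669, and at −0.35 and −0.094 in the 2873. In the 1669, *ORC2Δ* cells were thus the higher line relative to WT, opposite to the ratio of −0.019. The part of the row ends in these medians was not tested. The 7611 matched origins in both knockout lists and not in the WT list had a median ratio of 0.030 between the lines, and *ORC2Δ* and *ORC5Δ* cells were above WT by 0.088 and 0.13.

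Among the origins of the highest level in 1 list without a counterpart in the other, 3 of 6 have a count in both lines, and their levels were less than 1.5-fold apart. At DEDD, which encodes a death effector domain protein, the *ORC2Δ* origin at chr1:161131709-161132769 had 839 reads and a level of 101, and the *ORC5Δ* table gives 753 reads and 87.0 for the same place, 20.7 kb from the nearest *ORC5Δ* peak. At CASP9, the caspase-9 gene, the *ORC5Δ* origin at chr1:15524112-15525534 had 1238 reads and a level of 102, against 1288 reads and 120 in the *ORC2Δ* table. At RAB43, a small GTPase gene, the *ORC5Δ* origin at chr3:129121410-129122601 had 1067 reads and a level of 105, against 989 reads and 113. The other 3 origins so chosen, in FAM117A and in a lncRNA gene of chromosome 5 for *ORC2Δ* and in AFAP1L2 for *ORC5Δ* cells, are not in the WT list and have no count in the other line. Their levels were 98.1, 101, and 120 with 803, 959, and 1718 reads, and WT had 674, 742, and 1514 reads there.

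The genes looked up were those of the replication machinery, of the colon epithelium and Wnt signalling, and 9 genes at mapped human origins. Of the 89 genes, 33 held at least 1 matched origin, 74 in all, of which 0 passed 1.5-fold, a count near the background of 0.401% and 0.984%. The 74 origins had a median log2 ratio of 0.034 and a range of −0.39 to 0.45, and none was in a run. The interval included 0 for 69 of the 74. Among the ORC genes, only ORC1 held one, in an intron at chr1:52396715-52397132, with 70 reads in *ORC2Δ* cells, 84 in *ORC5Δ* cells, and a log2 ratio of −0.14 (−0.62 to 0.34). Neither ORC2 nor ORC5 held a matched origin, although 1 origin of the *ORC5Δ* list lies in ORC5, and the deletions were not checked with these data. Of 14 licensing genes, 8 held an origin, from MCM2, a helicase subunit, at −0.31 to MCM9 at 0.30, and 6 of 15 firing genes did, with a median of −0.020 over 11 origins. Of 18 genes of polymerases, clamp, and ligase, 7 held 20 origins with a median of 0.049, of which LIG1, the DNA ligase of Okazaki fragments, had 7. Of 12 genes of S phase cyclins and checkpoint, 3 held an origin, at CCNE1, CCNE2, and CCND1. Of 15 genes of the colon epithelium and Wnt signalling, 6 held 22 origins with a median of 0.026. TCF7L2, the Wnt transcription factor, had 8, and AXIN2, a Wnt feedback gene, had 5 with a range of −0.099 to 0.45.

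LMNB2, the lamin B2 gene with a classically mapped human origin near its end, held 4 matched origins present in both lists. The origin at chr19:2432228-2433871 had 868 reads in *ORC2Δ* and 888 in *ORC5Δ* cells, and a log2 ratio of 0.059 (−0.078 to 0.20). The other 3 had ratios of 0.12, 0.069, and −0.054, each with an interval that included 0. ATXN10 held 4 as well, with ratios from −0.20 to 0.065, of which 2 were absent from the *ORC5Δ* list at levels of 34.1 and 18.9 in that line, against 35.6 and 19.6 in *ORC2Δ* cells.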

How the data were processed

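SNS-seq reads were aligned by the authors to hg38 (GRCh38) after trimming with Trim Galore 0.6.4 per the labels, with Bowtie for alignment, MACS2 for peaks in each replicate, and bedtools. The deposited tables give read counts, whole numbers without normalization, in the joined origins of WT and 1 knockout line, with replicates merged. The origin lists hold the coordinates of peaks that both replicates share. The tool that counted reads and the handling of duplicates are not given in the sources used here, so intervals cover counting error only and may be too narrow if amplified copies were kept. The members and lists were chosen with earlier results of these data known.

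Rows of the tables of *ORC2Δ* (7808290 reads) and *ORC5Δ* cells (8523971 reads) were paired 1 to 1 at an overlap of at least 50% of both, and reads were divided by the total of the line, other contigs included, and by the width. Calls used 1.5-fold, without a pseudocount. Named origins were the 8 in each direction with the highest interval bound (at least 100 reads, 1 per 5 Mb), the 5 with the most reads on different chromosomes, the 3 of highest level per list without a counterpart, and all in the listed genes. The LMNB1, PALLD, WWOX, and PCDH12 origins were added after their values were seen. Among origins outside the runs that were higher in *ORC5Δ* cells, PALLD, WWOX, and PCDH12 ranked 1, 5, and 2 by the interval bound. Annotation came from GENCODE release 44. Pairing, scaling, width, low counts, and threshold were varied, and the limits of the runs and a count without them were added after seeing the data. The functions were tested on simulated data. Python 3.11.15, pandas 2.3.3, scipy 1.17.1, samtools 1.23.1, pysam 0.24.0, and, for TMM factors alone, edgeR 4.0.16 in R 4.3.3 were used. The *ORC1Δ* table was used only for the comparison of pairs.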

Additional observations from a re-analysis of the deposited data

How the results depend on the processing

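The deposited tables merge the replicates, so leaving out a replicate could not be run. No paired analysis was possible because the tables and lists carry no replicate numbers. A read or list value per line is 1 sample, depth limits single origins, and the cause of the changes below was not tested. With identical start and end, 5892 origins were paired, 26 were higher in *ORC2Δ* and 158 in *ORC5Δ* cells, and the shift of strongly skewed origins (24 left) was 0.20. Without division by the width, 699 and 875 origins passed, and the shifts of skewed origins and of the first 20 Mb of chromosome 6 were 0.20 and −0.84. With at least 200 reads, 163 origins were higher in *ORC5Δ* cells and the shift of chromosome 6 was −0.66. After the WT ratio of the tables was taken off, 569 were higher in *ORC5Δ* cells and the shifts were 0.18 and −0.79. In rows of both lists, 93 and 62 origins passed and the shifts were 0.13 and −0.50. At 2-fold, 12 and 64 passed, and with the whole interval beyond 1.5-fold, 16 and 58. After the median of 5 Mb blocks was taken off, 129 were higher in *ORC5Δ* cells and the skew shift was 0.13. At a skew of 0.7 or more, the shift was 0.13. Outside the runs, chosen after seeing the data, 63 and 95 passed. With total reads of the matched rows, 103 and 435 passed, against 150 and 368. The shares of the *ORC2Δ* and *ORC5Δ* lists were 77.2% and 70.6% at 50% of both origins, 78.3% and 71.8% for midpoints, 79.5% and 72.9% within 500 bp, and 75.7% and 69.3% for origins of at least median width. With at least 200 reads, 209 called origins lay in runs, and other window lengths and limits, also added later, gave 10 to 16 runs. Among the values recomputed (the counts, shares and shifts above and the named origins), no called value changed sign. The uncalled origin with the most reads (chromosome 6) went from 0.074 to −0.031 with the 5 Mb block median taken off. It had 0.0095 with the WT ratio taken off.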
